A study of Homo sapiens with 22 samples.

Results

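The regions described here lay within 50 kb of the bodies of 10 genes that encode inflammatory signals or brakes on them. They were IL6, CXCL8, CXCL1, IL1A, IL1B, CCL2, LIF and CSF2, which encode secreted ligands, and TNFAIP3 and NFKBIA, which encode inhibitors of NF-kappaB signalling. The genes were chosen by name and the regions by position alone, so no measured value is part of the rule. Earlier results of these data were known when the members were chosen. Of 871377 regions in 22 deposited lists, 544 lay at these loci, and 221 of the 544 came from the 18 lists of FOXA2, JUN or FOSL1. A region within this distance of both neighbouring genes IL1A and IL1B was counted once among regions. In counts of genes it counted for each of them.

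The lists came from ChIP-seq, which sequences DNA recovered with an antibody, and from ATAC-seq, which marks accessible chromatin, in 3 human prostate cancer cell lines. PC3 lacks the androgen receptor, NCI-H660 is neuroendocrine, and LNCaP is luminal and expresses the androgen receptor. FOXA2 was profiled in PC3 under vehicle, ORY-1001 at 10 µM or C12 at 0.5 µM, each inhibitor for 4 h, and in NCI-H660 under vehicle or ORY-1001 at that dose and time. Both compounds inhibit the histone demethylase LSD1. In PC3 and NCI-H660, JUN was profiled after a control siRNA (siNC) or after silencing FOXA2 by siRNA (siFOXA2), and FOSL1 likewise in PC3. In LNCaP, JUN was profiled under siNC, under an siRNA against FOXA1 (siFOXA1), in a stable pool expressing tagged FOXA2 from a lentivirus (FOXA2OE) and in cells titled FOXA2K265R, whose FOXA2 carries arginine in place of a lysine. Another label of that last sample names the FOXA2OE line. FOXA2 itself was profiled in the FOXA2OE cells. Accessible chromatin was mapped in PC3 and NCI-H660, H3K27ac in PC3 and H3K4me2 in NCI-H660. A further 2 FOXA2 ChIPs in PC3, also titled vehicle and with unlabelled antibodies, are called the other FOXA2 ChIPs. Below, FOXA2 in PC3 under vehicle means the vehicle list that shares a processing folder with the inhibitor lists, unless the other ChIPs are named.

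Each of the other 20 groups held 1 list, so no contrast has a replicate check and no p-value was computed. Intervals on shares are Wilson 95% intervals and cover counting error only. Read depth is unknown. A region's score, where a list holds one, is read as 10 times the −log10 q-value of the peak caller, and it is used to rank regions within a list. A score in one list is not a measured change from a score in another. Silencing of FOXA2 could not be checked in lists of JUN and FOSL1. All coordinates are hg19.

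As background, NF-kappaB and AP-1 (dimers of JUN and FOS family proteins such as JUN and FOSL1) are the classical activators of these cytokine and chemokine genes, and NFKBIA and TNFAIP3 are induced by NF-kappaB and then restrain it. FOXA2 is a pioneer factor of the forkhead family, which can bind its sites in closed chromatin and make them reachable for other factors. In epithelial tumours, CXCL8 and CXCL1 attract neutrophils, IL6 and LIF signal through a shared receptor subunit to STAT3, the interleukin-1 ligands IL1A and IL1B activate NF-kappaB, CCL2 attracts monocytes and CSF2 acts on myeloid cells.

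Sequences are shown for the places on which the results below turn, from the reference genome of this build, 5′ to 3′. Capitals mark matches to 3 motifs searched on both strands. AP-1 was searched as TGACTCA or TGAGTCA. The forkhead motif was T, then A or G, then TTT, then A or G, then C or T, and kappaB was the consensus of the NF-kappaB subunits. No matches of different kinds overlapped in these windows. The first set shows the CXCL8 gene in PC3. The window from 220 to 21 bases before its start (chr4:74606066-74606265, plus strand) held an AP-1 match centred 134 bp and a forkhead match centred 151 bp upstream of the start, with 10 bases between them. Among the same windows of 20163 protein-coding genes, 2.58% held AP-1, 13.6% forkhead and 9.41% kappaB. The CXCL8 window held no kappaB match, though its stretch TGGAATTTCC departs from that motif only in its leading base. The forkhead match nearest the centre of the FOXA2 region lay 87 bp inside the gene (chr4:74606360-74606386, plus strand). The distal element upstream (chr4:74570289-74570489, plus strand) held 2 AP-1 matches.
CXCL8 upstream of the start: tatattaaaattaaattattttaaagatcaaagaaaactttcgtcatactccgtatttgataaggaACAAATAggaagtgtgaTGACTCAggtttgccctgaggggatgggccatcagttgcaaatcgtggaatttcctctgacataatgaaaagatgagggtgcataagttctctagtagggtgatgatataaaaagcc
CXCL8 forkhead site: ctcactgtgtGTAAACAtgacttccaa
CXCL8 distal element: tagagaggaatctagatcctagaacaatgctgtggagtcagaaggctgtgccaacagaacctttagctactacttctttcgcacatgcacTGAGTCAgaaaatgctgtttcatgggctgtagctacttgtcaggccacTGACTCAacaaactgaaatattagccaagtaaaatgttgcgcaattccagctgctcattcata

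The second set shows interleukin loci in PC3. The IL6 element (chr7:22757755-22757955, plus strand) and the IL1B element (chr2:113627173-113627373, minus strand) each carried FOXA2 and JUN regions. The IL1A start (chr2:113542041-113542163, minus strand) carried JUN without FOXA2.
IL6 upstream element: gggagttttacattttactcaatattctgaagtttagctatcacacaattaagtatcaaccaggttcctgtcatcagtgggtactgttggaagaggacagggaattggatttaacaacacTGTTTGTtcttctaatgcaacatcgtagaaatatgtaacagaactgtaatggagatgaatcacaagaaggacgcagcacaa
IL1B upstream element: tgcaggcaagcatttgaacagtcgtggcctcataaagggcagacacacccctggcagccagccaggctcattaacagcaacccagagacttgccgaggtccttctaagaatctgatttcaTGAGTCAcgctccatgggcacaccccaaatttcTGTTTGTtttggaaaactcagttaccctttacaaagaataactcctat
IL1A start: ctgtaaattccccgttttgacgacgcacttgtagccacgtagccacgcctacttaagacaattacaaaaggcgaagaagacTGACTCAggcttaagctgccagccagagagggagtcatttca

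The third set shows the NF-kappaB inhibitor genes. At TNFAIP3 (chr6:138188010-138188210, plus strand) the AP-1 and kappaB matches had 4 bases between them. At NFKBIA a kappaB match (chr14:35873159-35873188, minus strand) lay under the JUN regions of PC3, NCI-H660 and the LNCaP lines with added FOXA2, and an AP-1 match lay in the downstream element (chr14:35860317-35860517, minus strand).
TNFAIP3 upstream of the start: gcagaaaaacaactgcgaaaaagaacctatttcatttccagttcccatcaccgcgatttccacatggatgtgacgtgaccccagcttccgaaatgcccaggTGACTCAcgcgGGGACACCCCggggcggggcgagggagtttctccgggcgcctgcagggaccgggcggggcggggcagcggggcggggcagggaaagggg
NFKBIA kappaB site: ggaggggggcGGAAAGTCCCtgggcgcctg
NFKBIA downstream element: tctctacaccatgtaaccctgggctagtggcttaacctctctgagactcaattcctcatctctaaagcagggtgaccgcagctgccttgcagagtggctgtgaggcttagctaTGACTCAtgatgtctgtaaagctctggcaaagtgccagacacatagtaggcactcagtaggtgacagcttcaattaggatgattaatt

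FOXA2 in vehicle-treated PC3 had 19 regions at the loci, and 9 of the 10 genes had at least 1, the exception being NFKBIA. Over all 20163 protein-coding genes, 54.1% had a FOXA2 region within the same distance. The members are short genes, 1916 to 16101 bp long, and among the 6334 genes in that range the share was 39.5%. CXCL8 had 5 FOXA2 regions, a number reached by 5.98% of all genes. In each of the other FOXA2 ChIPs all 10 genes had a region, in lists that reached 86.5% and 82.9% of all genes. In NCI-H660 under vehicle FOXA2 had 7 regions, and 6 genes had at least 1, against a background of 37.6%. CXCL8, IL1B, TNFAIP3 and NFKBIA had none there.

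JUN under siNC had 21 regions at the loci in PC3, near 8 of the 10 genes, with a background of 62.8%. CCL2 and CSF2 had none. CXCL8 and LIF had 5 each, a number reached by 7.35% of all genes. FOSL1 under siNC had 3 regions, 1 each near CXCL1, CCL2 and NFKBIA, where the background was 17.4%. In NCI-H660, JUN under siNC had 10 regions near 6 genes, with a background of 66.2%. In LNCaP, JUN under siNC had none near any member, against 13.4% of all genes, in a list of 2421 regions that holds no score.

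**Figure D1:**
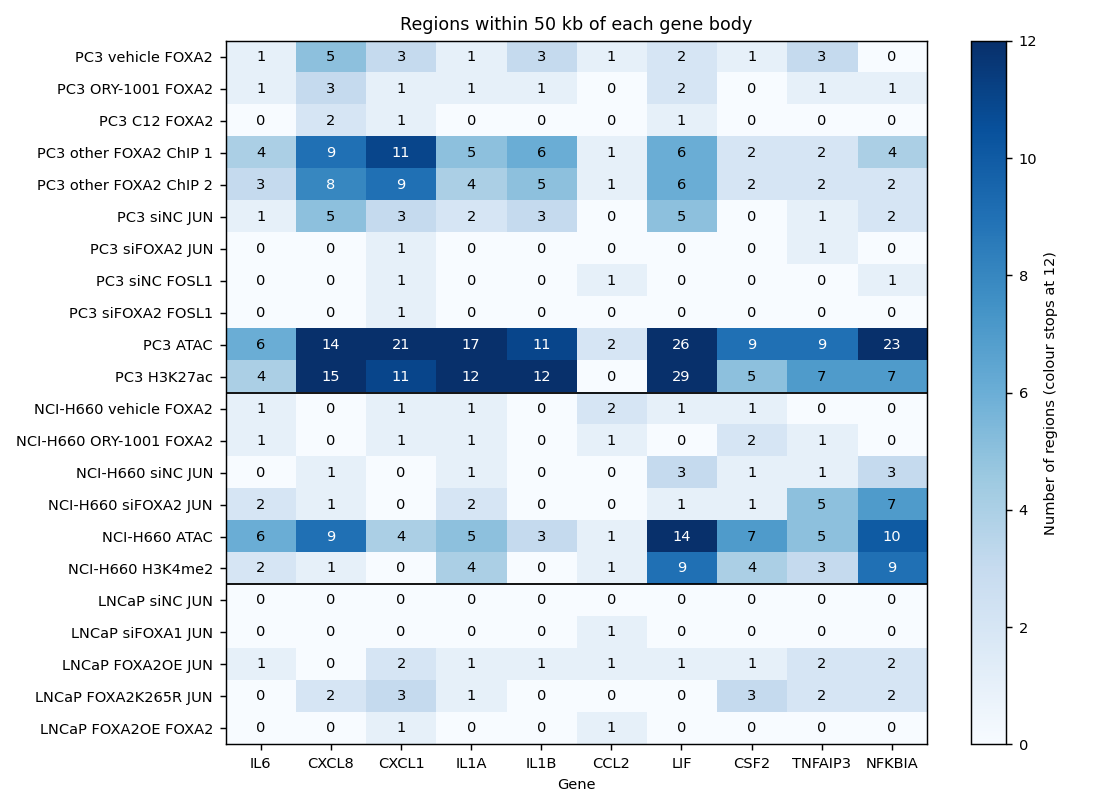
Number of regions within 50 kb of each gene body, with a row for each deposited list, a column for each gene and lines between the 3 cell lines. CXCL8 holds 5 FOXA2 and 5 JUN regions in control PC3 cells, CCL2 holds 0 to 2 in every list, and the LNCaP siNC JUN row is 0 throughout.

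**Figure D2:**
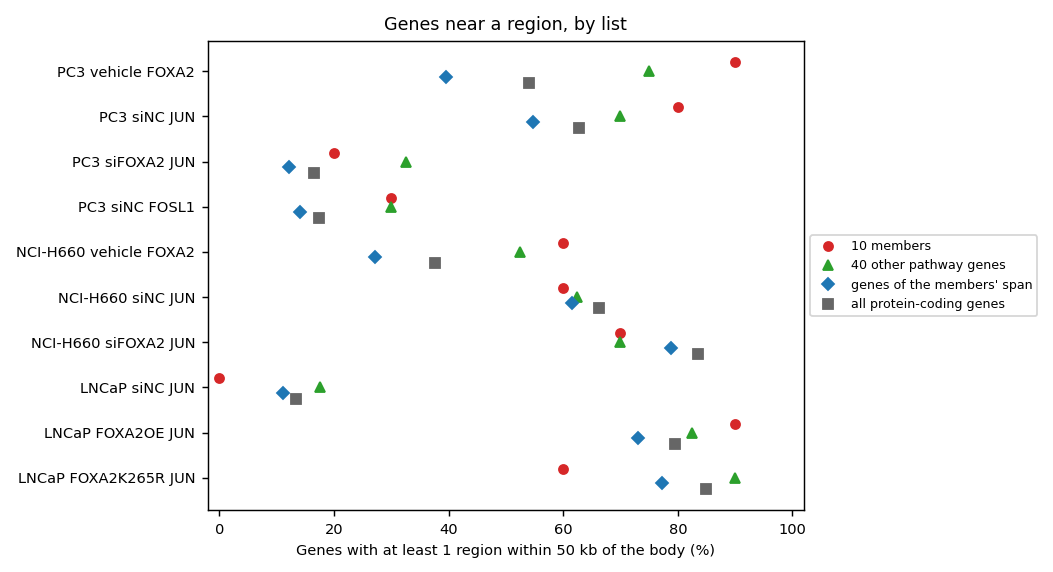
Percentage of genes with at least 1 region within 50 kb of the body for 10 FOXA2, JUN and FOSL1 lists. Circles are the 10 members, triangles the 40 other pathway genes, diamonds the genes 1916 to 16101 bp long and squares all protein-coding genes. For PC3 FOXA2 under vehicle the circle lies at 9 of 10 genes and the square at 54.1%.

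Among the chemokines, CXCL8 carried the strongest FOXA2 region of all 10 loci. In PC3 under vehicle it spanned the transcription start (chr4:74606156-74606576) with a score of 1263, in the top 1.49% of its list. It was called again under ORY-1001 with a score of 1214 (top 1.27%) and under C12 with a score of 844 (top 2.42%). The other FOXA2 ChIPs gave scores of 2171 and 1587 there. The start was also the strongest accessible place at these loci in PC3, with an ATAC score of 4703, and it was accessible in NCI-H660 with a score of 366, where neither FOXA2 nor JUN had a region. JUN was called over the start in PC3 under siNC (chr4:74606113-74606462) with a score of 170 and was not called under siFOXA2. The AP-1 match shown above lay beyond 100 bp of the centre of that region. Neither the FOXA2 nor the JUN region overlapped H3K27ac, although an H3K27ac region with a score of 216 lay within 1 kb of the start.

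Further from CXCL8, JUN had regions 35.7, 32.5, 18.4 and 14.4 kb upstream in PC3, with scores of 187, 313, 165 and 148, and none was called under siFOXA2. Of these, the region 35.7 kb upstream overlapped FOXA2 of the vehicle list. The FOXA2 region there (chr4:74570105-74570674) scored 48 under vehicle and 63 under C12. Under ORY-1001 the region (chr4:74570487-74570738) scored 36, overlapped the vehicle region only in part and did not reach the 2 AP-1 matches. The other 3 FOXA2 regions of this locus, 47.8 and 5.17 kb upstream and 18.6 kb downstream of the start, scored 77, 218 and 73 and were called under neither inhibitor. In NCI-H660 the only JUN region under siNC lay 9.98 kb upstream with a score of 90. Just outside the 50 kb limit of CXCL8, at 50.1 kb from the gene body, PC3 had a FOXA2 region with a score of 237 and a JUN region with a score of 297 that overlapped each other.

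At CXCL1, whose window also holds the related chemokine gene CXCL6, the strongest FOXA2 and JUN regions of PC3 lay together in an intron of CXCL6, 24.9 kb upstream of CXCL1. FOXA2 scored 210 there (chr4:74709998-74710430) and JUN 258 (chr4:74710124-74710394), and neither was called again under either inhibitor or under siFOXA2. A second place, within 1 kb of a CXCL6 start (chr4:74701751-74702000), had low scores and recurred in many lists. FOXA2 scored 31 under vehicle and 20 under C12, JUN 37 under siNC and 45 under siFOXA2, and FOSL1 87 under siFOXA2 without a region under siNC. In LNCaP FOXA2OE cells it held 1 of the 2 FOXA2 regions at these loci. The CXCL1 start itself carried JUN in FOXA2OE (score 103) and FOXA2K265R cells (score 76) but no FOXA2, JUN or FOSL1 region in PC3 or NCI-H660. In NCI-H660, FOXA2 lay 11049 bp downstream with a score of 64 under vehicle and 55 under ORY-1001.

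CCL2 was the sparsest locus, with 2 places that held any of these factors, both beyond CCL11 and over 40 kb from the CCL2 start. The nearer place (chr17:32622575-32622811) scored 48 for FOXA2 in PC3 and 54 in NCI-H660, and FOSL1 scored 40 there in PC3 (chr17:32622590-32622819). It was the only region of the PC3 vehicle list at the loci that overlapped FOXA2 of NCI-H660 under vehicle. The farther place held FOXA2 in NCI-H660 with a score of 50 and in the other FOXA2 ChIPs of PC3 with scores of 152 and 67. The nearer place was accessible in PC3 and not in NCI-H660, whereas the farther place was accessible in NCI-H660 and not in PC3. H3K27ac had no region at this locus.

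For the cytokines that signal through STAT3, IL6 had 1 element with FOXA2 under vehicle and JUN under siNC in PC3, inside an intron of STEAP1B and 8.96 kb upstream of the IL6 start. FOXA2 scored 389 there under vehicle (chr7:22757640-22758071, top 16.8%), 77 under ORY-1001 (top 55.6%), and was not called under C12. JUN scored 250 (chr7:22757721-22758098) and was not called under siFOXA2. The place was accessible and carried H3K27ac in PC3 and was not accessible in NCI-H660, where JUN was called at it only under siFOXA2, with a score of 33. The IL6 start was accessible in both lines and held no FOXA2 or JUN region under vehicle or siNC. The first of the other FOXA2 ChIPs had one there with a score of 72 (chr7:22766363-22766647). FOXA2 in NCI-H660 had a separate intronic region of STEAP1B, 45.8 kb upstream of IL6, with a score of 154 under vehicle and 92 under ORY-1001.

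LIF had the densest PC3 chromatin of the 10 loci, with 29 H3K27ac regions, a number reached by 1.38% of all genes, and 26 ATAC regions. Of its 5 JUN regions, the highest score was 297 (chr22:30602956-30603216, 39.7 kb downstream of the start). In the vehicle list 1 of the 5 was shared with FOXA2. That place, about 50 kb downstream of the start on the far side of the gene, was the most recurrent of the 101 places bound at the loci. PC3 FOXA2 scored 414 there under vehicle (chr22:30592665-30593076, top 15.3%), 235 under ORY-1001 and 282 under C12. JUN scored 146 in PC3 and was not called under siFOXA2, whereas in NCI-H660 it scored 142 under siNC and 82 under siFOXA2. The NCI-H660 FOXA2 region of that place (chr22:30591949-30592202) scored 89, was not called under ORY-1001 and did not overlap the PC3 vehicle region. No AP-1, forkhead or kappaB match lay within 100 bp of the centre of the PC3 FOXA2 or JUN region.

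At the interleukin-1 genes, PC3 JUN covered the IL1A start (chr2:113541943-113542184) with a score of 158 and had no counterpart under siFOXA2, in NCI-H660 or in FOXA2 lists. It held 2 AP-1 matches, 1 on each side of the start, of which the upstream one is shown above. The strongest JUN region of this locus (chr2:113494570-113494926, score 307) lay in a UTR of CKAP2L, 47.3 kb downstream of IL1A. FOXA2 peaked between the genes (chr2:113561818-113562093) with a score of 197, without JUN. Upstream of IL1B the 2 factors overlapped at 2 places. The first (chr2:113627128-113627419 for JUN), 32.9 kb away, scored 191 for JUN and 84 for FOXA2, and the second, 43.4 kb away, scored 151 for JUN and 50 for FOXA2. Only the second was called for FOXA2 under ORY-1001, with a score of 34, and neither was called under C12. NCI-H660 had a FOXA2 region with a score of 158 at the far end of the IL1A window in NT5DC4, called under ORY-1001 with a score of 96, and no FOXA2 or JUN region near IL1B. The IL1B start carried FOXA2 in both of the other FOXA2 ChIPs, with scores of 116 and 88, and in no other FOXA2 list.

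CSF2 and CXCL8 were the genes with FOXA2 within 1 kb of the start in PC3 under vehicle. The CSF2 region (chr5:131409340-131409602) scored 138 under vehicle and 255 and 165 in the other FOXA2 ChIPs, and was not called under ORY-1001 or C12. It held no forkhead match within 100 bp of its centre. In NCI-H660 a FOXA2 region with a score of 120 appeared under ORY-1001 within 1 kb of the CSF2 start. The highest-scoring FOXA2 region of NCI-H660 at the loci lay 43.4 kb downstream of that start (chr5:131452697-131452991). It scored 292 under vehicle and 350 under ORY-1001. JUN of NCI-H660 overlapped it, with scores of 35 under siNC and 62 under siFOXA2.

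The NF-kappaB inhibitor genes had JUN within 1 kb of their starts in PC3 and NCI-H660 under siNC and no FOXA2 there in the vehicle list of either line. TNFAIP3, which encodes the ubiquitin-editing enzyme A20, carried JUN just upstream of its start in PC3 and NCI-H660 and in both LNCaP lines with added FOXA2. The score was 434 in PC3 under siNC (chr6:138187940-138188280, top 10.8%) and 242 under siFOXA2 (top 14.7%). In NCI-H660 it was 382 under siNC (chr6:138187808-138188382, top 10.4%) and 283 under siFOXA2 (top 2.14%). FOXA2OE and FOXA2K265R cells gave 365 (top 1.18%) and 646 (top 0.888%). In PC3 this was the highest-scoring of the 21 JUN regions, and it overlapped no FOXA2 region in any list. FOXA2 at this locus in PC3 under vehicle lay 37.4 and 28.9 kb upstream and 59.2 kb downstream of the start, with scores of 17, 170 and 183, and the last scored 94 under ORY-1001.

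NFKBIA, which encodes the inhibitor that holds NF-kappaB in the cytoplasm, had JUN inside the gene, 809 bp from its start in PC3 (chr14:35872982-35873310). It scored 66 in PC3 under siNC, 72 and 77 in NCI-H660 under siNC and siFOXA2, 77 in FOXA2OE and 39 in FOXA2K265R cells, and was not called in PC3 under siFOXA2. FOSL1 scored 48 there under siNC and was not called under siFOXA2. NCI-H660 also had JUN 13.5 kb downstream of the start (chr14:35860255-35860579), with scores of 332 under siNC and 113 under siFOXA2. Over the start itself (chr14:35873796-35874182), JUN scored 23 in NCI-H660 under siNC and was not called under siFOXA2. NFKBIA had no FOXA2 region in PC3 under vehicle or in NCI-H660, and 1 with a score of 14 under ORY-1001 in PC3. The other FOXA2 ChIPs had 4 and 2 regions at this locus, of which 1 in the first of them, with a score of 46 (chr14:35872945-35873324), overlapped the JUN region near the start.

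**Figure D3:**
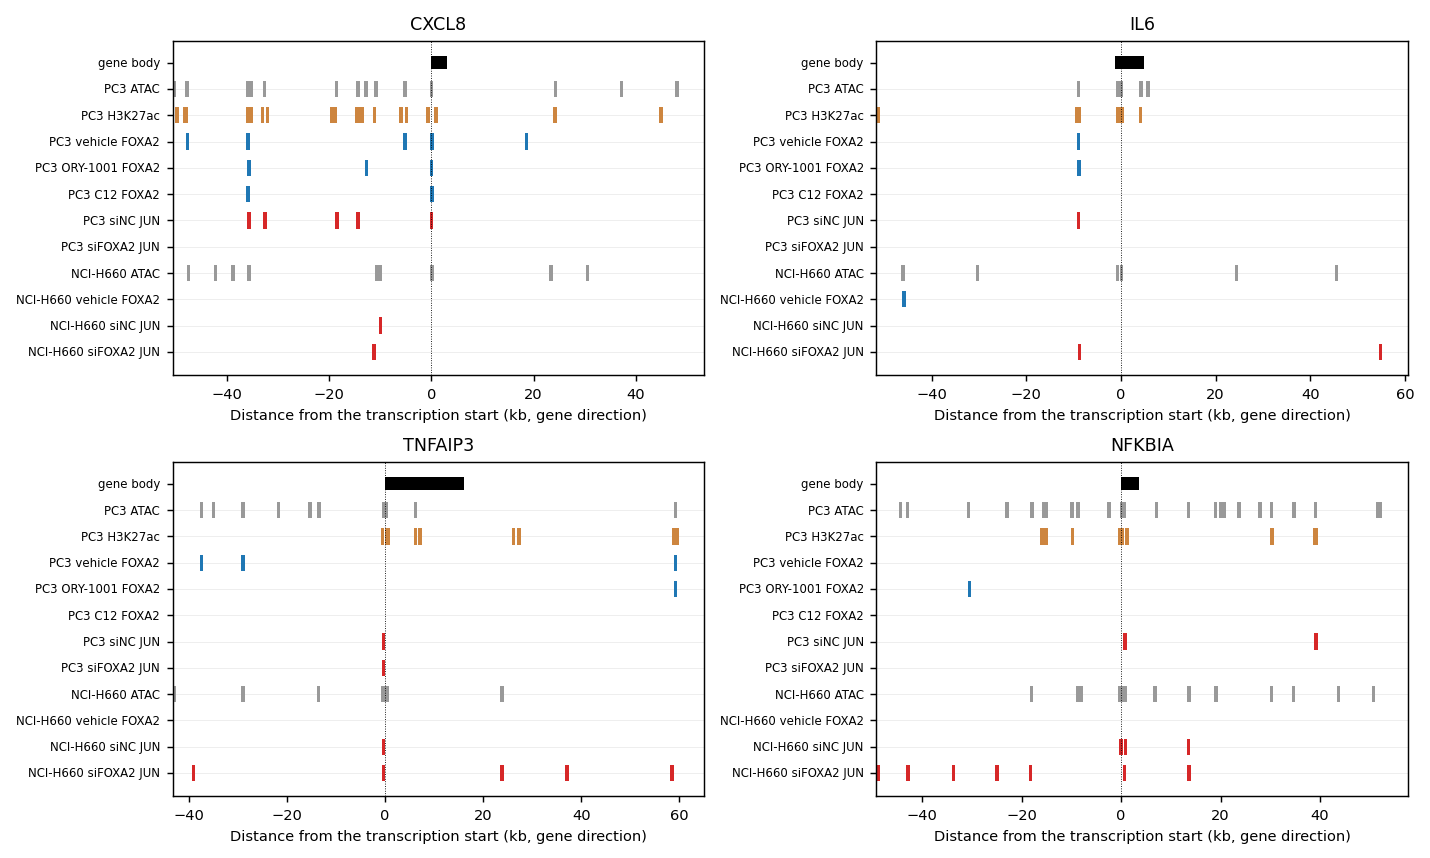
Regions around CXCL8, IL6, TNFAIP3 and NFKBIA for 11 lists against distance from the transcription start in kb, positive in the direction of transcription. Bars are regions, drawn at least 0.7 kb wide, in grey for ATAC, brown for H3K27ac, blue for FOXA2 and red for JUN. FOXA2 and JUN meet at the CXCL8 start in PC3, and TNFAIP3 and NFKBIA carry JUN within 1 kb of their starts in both lines.

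Regions within 1 kb of a member's canonical start were few. In PC3 under vehicle, FOXA2 had them at 2 of the 10 genes (CXCL8 and CSF2), where 2.78% of all genes had one. The other FOXA2 ChIPs had them at 5 (with IL6, IL1B and NFKBIA, background 15.1%) and at 3 (with IL1B, background 11.9%). JUN had them at 4 (CXCL8, IL1A, TNFAIP3 and NFKBIA), with a background of 8.00%. In NCI-H660, FOXA2 had none (background 1.97%) and JUN had TNFAIP3 and NFKBIA (19.8%). JUN in FOXA2OE cells had 4 genes (23.2%) and in FOXA2K265R cells 3 (37.4%), with CXCL1, TNFAIP3 and NFKBIA in both. Accessible chromatin was called at 9 of the 10 starts in PC3 (73.4%) and at 7 in NCI-H660 (71.4%). The CCL2 start was closed in both lines, and those of IL1A and IL1B only in NCI-H660. H3K27ac lay within 1 kb of 9 starts in PC3 (65.1%) and H3K4me2 of 5 in NCI-H660 (71.5%). Within 50 kb, all 10 genes had an ATAC region in PC3 (99.1%) and in NCI-H660 (95.9%), 9 had H3K27ac (92.5%) and 8 had H3K4me2 (94.7%).

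FOXA2 and JUN met in PC3 at 8 of the 19 FOXA2 regions, 42.1% (23.1 to 63.7), where the whole FOXA2 list gave 44.3%. From the other side 8 of the 21 JUN regions, 38.1% (20.8 to 59.1), overlapped FOXA2, against 44.5% of the whole JUN list. The shared places were the IL6 element, the CXCL8 start and distal element, both CXCL6 places, both IL1B elements and the LIF place. The co-occupied share at the loci was therefore near that of the lists as a whole. In NCI-H660, 3 of 7 FOXA2 regions overlapped JUN, 42.9% (15.8 to 75.0), against 36.4% of its whole list.

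The lines shared few regions of these lists. Only 1 of the 19 PC3 FOXA2 regions overlapped a FOXA2 region of NCI-H660, 5.26% (0.935 to 24.6), against 11.1% of the whole list. For JUN it was 3 of 21, 14.3% (4.98 to 34.6), against 12.8%, and the 3 were the LIF place, the TNFAIP3 start and the NFKBIA gene. In PC3, 18 of 19 FOXA2 and 21 of 21 JUN regions overlapped accessible chromatin of that line, as did 89.3% and 96.0% of the whole lists. In accessible chromatin of NCI-H660 lay 9 of the 19, 47.4% (27.3 to 68.3), against 22.6% of the whole PC3 FOXA2 list. FOXA2 regions at the loci lay within 1 kb of a start more often (3 of 19, 15.8%) than the whole list (3.98%), and the part of this in the shared accessibility was not tested. Each window was set around a gene and so holds a start by the rule, unlike the whole list. The other FOXA2 ChIPs each covered 16 of the 19, 84.2% (62.4 to 94.5), where the whole vehicle list gave 92.5% and 90.8%. With 49 and 41 regions at the loci, both had more than the vehicle list.

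In PC3, forkhead matches were the more frequent in FOXA2 regions and AP-1 matches in JUN regions. Within 100 bp of the centre, 12 of the 19 PC3 FOXA2 regions held a forkhead match (63.2%, 41.0 to 80.9, whole list 77.3%) and 7 an AP-1 match (36.8%, 19.1 to 59.0, whole list 26.4%). In NCI-H660 all 7 FOXA2 regions held a forkhead match, against 75.9% of that list, and none held AP-1, against 6.30%. Of the 21 PC3 JUN regions, 12 held AP-1 (57.1%, 36.5 to 75.5, whole list 49.5%) and 5 held forkhead (23.8%, 10.6 to 45.1, whole list 43.5%). A kappaB match was found in 5 of the 21, 23.8% (10.6 to 45.1), where the whole JUN list had 3.06%, below the interval. These lay at CXCL8 (2 regions), LIF, TNFAIP3 and NFKBIA. Among PC3 ATAC regions at the loci, 12 of 132 held kappaB, 9.09% (5.28 to 15.2), where the whole ATAC list had 5.02%, also below the interval. In NCI-H660 ATAC it was 4 of 62, 6.45% (2.54 to 15.4), against 5.47%. JUN regions at the loci also lay more often within 1 kb of a start (5 of 21, 23.8%) than the whole list (8.46%), and the part of this in the kappaB share was not tested. The windows, set around genes, each hold a start by the rule. Among the 10 NCI-H660 JUN regions 2 held AP-1 (whole list 13.8%) and 3 held kappaB (10.8 to 60.3%, whole list 5.44%), all 3 at TNFAIP3 and NFKBIA. None of the 19 PC3 FOXA2 regions did, against 1.82% of that list.

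After FOXA2 silencing in PC3, 2 of the 21 JUN regions were called again, 9.52% (2.65 to 28.9), near the 13.4% kept over the whole list. They were the TNFAIP3 start and the CXCL6 place. The 19 lost regions, with scores from 25 to 313 and a median of 165, lay near IL6, CXCL8, CXCL1, IL1A, IL1B, LIF and NFKBIA, so every JUN region near IL6, CXCL8, LIF, NFKBIA and the interleukin-1 genes was lost. Genes with a JUN region within 50 kb went from 8 to 2 of 10, where the siFOXA2 list reached 16.6% of all genes. Among the JUN regions that overlapped FOXA2 of the PC3 vehicle list, 1 of 8 was kept, and among those that did not, 1 of 13. Over the whole list these shares were 18.3% and 9.42%. The other FOXA2 ChIPs overlapped 13 and 10 of the 21 JUN regions, 61.9% and 47.6%, against 66.9% and 61.7% of the whole JUN list. Neither kept JUN region overlapped a region of those ChIPs. None of the 3 FOSL1 regions was kept, with an upper limit of 56.1%, against 6.90% of the whole list. A FOSL1 region appeared at the CXCL6 place, in a siFOXA2 list of which 81.5% was new.

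In NCI-H660 the same silencing left 5 of 10 JUN regions (interval 23.7 to 76.3%), against 48.0% of the whole list. Kept were the LIF place, 1 region near CSF2, the TNFAIP3 start and the NFKBIA regions 848 bp and 13.5 kb from its start. The 5 lost scored from 23 to 98, among them the region over the NFKBIA start. A further 14 regions appeared, with scores from 19 to 70 and a median of 27.5, of which 5 lay near NFKBIA and 4 near TNFAIP3. New regions made up 73.7% of the siFOXA2 regions at the loci and 85.2% of that whole list. Genes with a JUN region went from 6 to 7 of 10, with 83.5% of all genes in the siFOXA2 list. IL6, CXCL8 and IL1A were among the 7 only through new regions of that list. That list was longer as a whole, with 59452 regions against 18401 under siNC. At a score of at least 50, JUN had 7 regions at the loci under each siRNA.

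**Figure D4:**
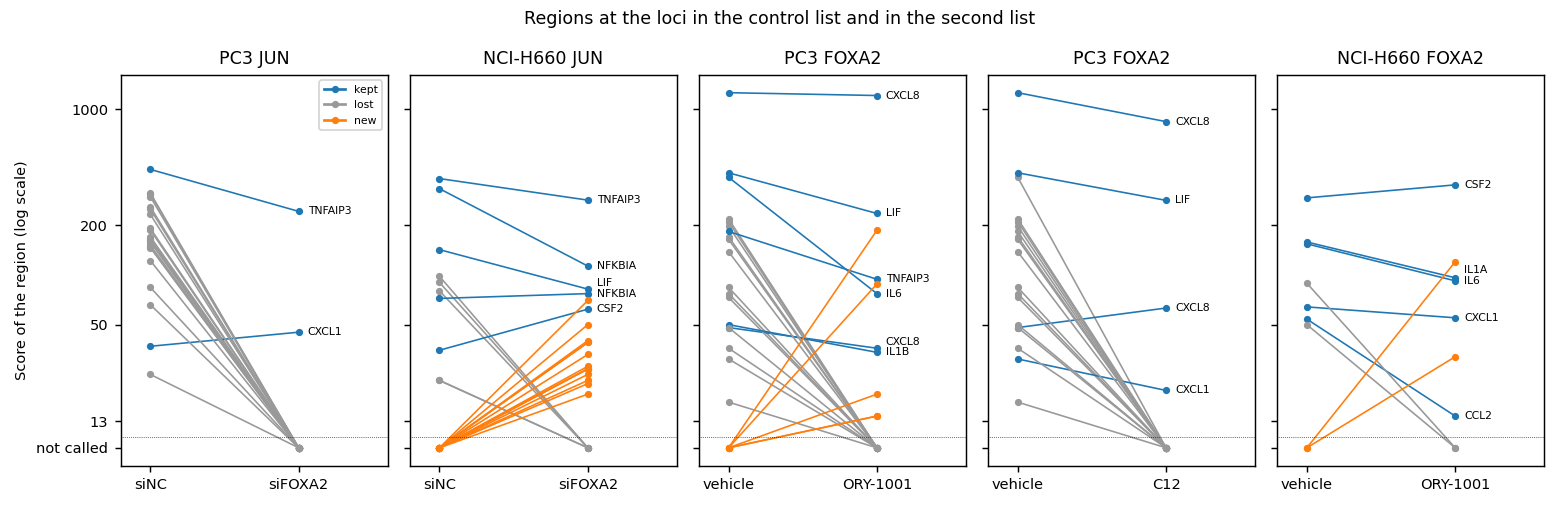
Score of each region at the loci in the control list (left) and in the second list (right) of 5 contrasts, on a log axis, with regions missing from a list drawn at the bottom as not called. Blue lines are kept, grey lost and orange new regions, and kept ones carry the nearest member's name. The CXCL8 start scores 1263 under vehicle, 1214 under ORY-1001 and 844 under C12, and all but 2 PC3 JUN regions are lost under siFOXA2.

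Under LSD1 inhibition in PC3, ORY-1001 at 10 µM left 6 of the 19 FOXA2 regions, 31.6% (15.4 to 54.0), against 36.8% of the whole list. C12 at 0.5 µM left 4 of 19, 21.1% (8.51 to 43.3), against 29.6%. Because the doses differed, the values are set side by side without a comparison of the compounds. Kept under both were the CXCL8 start, the CXCL8 distal element and the LIF place. The distal element was kept under ORY-1001 only by a partial overlap. Where an overlap of at least 50% of both regions was asked for, ORY-1001 left 5 of 19 (26.3%). Under ORY-1001 alone the IL6 element, the farther IL1B element and the distal TNFAIP3 region were kept, and under C12 alone the CXCL6 place. Called under neither were 12 regions, 63.2%, against 57.5% of the whole list. Genes with a FOXA2 region went from 9 to 8 of 10 under ORY-1001, where 38.9% of all genes had one, and to 3 of 10 under C12, where 28.7% did. CXCL1, IL1A and NFKBIA were among the 8 only through regions absent under vehicle, with scores of 14, 19 and 14. ORY-1001 had 5 regions absent under vehicle, with scores from 14 to 186, the highest 12.7 kb upstream of CXCL8 (chr4:74593424-74593712). They were 45.5% of its regions at the loci, against 35.6% of its whole list. In NCI-H660, ORY-1001 left 5 of 7 regions, 71.4% (35.9 to 91.8), against 68.4% of the whole list, near IL6, CXCL1, IL1A, CCL2 and CSF2, with scores from 14 to 350.

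**Figure D5:**
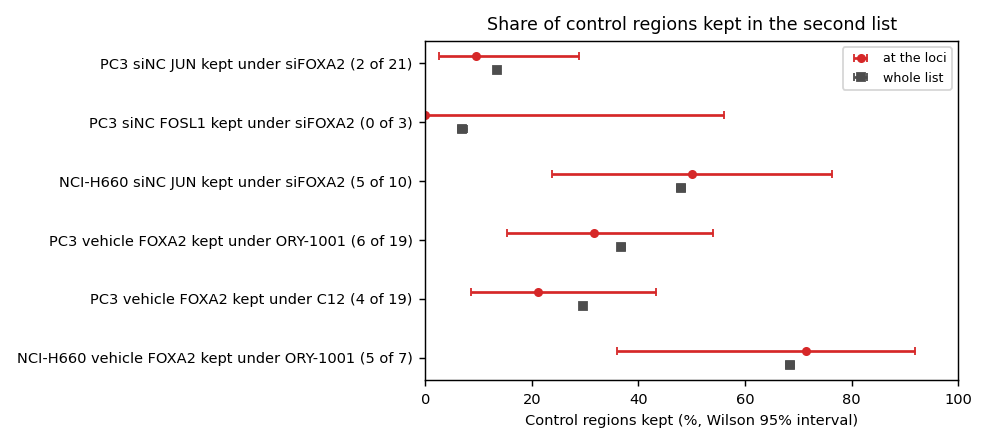
Percentage of control regions called again in the second list, for regions at the loci (circles) and for the whole list (squares), with Wilson 95% intervals. In each of the 6 contrasts the interval at the loci spans the share of the whole list, which runs from 6.90% to 68.4%.

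In LNCaP the siFOXA1 list had 1 JUN region, at the CCL2 place that recurred in other lists, with a score of 31. It thus reached 1 of the 10 genes, with a background of 8.64%. JUN in FOXA2OE cells had 11 regions near 9 genes (background 79.5%), with the same region for IL1A and IL1B. JUN in FOXA2K265R cells had 13 regions near 6 genes (85.0%). Both lists held the starts of CXCL1 and TNFAIP3 and the NFKBIA region. The overlapping share was 27.3% (9.75 to 56.6) of the FOXA2OE and 23.1% (8.18 to 50.3) of the FOXA2K265R regions, against 37.0% and 18.7% of the whole lists. A kappaB match lay in 4 of the 11 FOXA2OE regions (36.4%, 15.2 to 64.6, whole list 9.37%) and in 3 of the 13 FOXA2K265R regions (8.18 to 50.3%, whole list 8.24%), and AP-1 in 1 and 2. Only FOXA2OE cells had JUN at the IL6 start (chr7:22766924-22767162, score 66), and 2 of their 11 regions overlapped PC3 JUN, at TNFAIP3 and NFKBIA, as did 2 of the 13, against 4.01% and 4.51% of the whole lists. The siNC, FOXA2OE and FOXA2K265R lists came from different processing folders, so a difference between these conditions cannot be told apart from one between folders.

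Of 40 other genes of these pathways, 30 (75.0%) had a FOXA2 region within 50 kb in PC3 under vehicle, against 54.1% of all genes, and 28 (70.0%) a JUN region under siNC, against 62.8%. By role, FOXA2 lay near 13 of 15 ligands, 6 of 9 receptors, both decoys or antagonists (IL1RN, the interleukin-1 receptor antagonist, and IL1R2), 3 of 5 NF-kappaB subunits and 6 of 9 regulators. JUN lay near 11, 7, 2, 3 and 5 of them. Under siFOXA2, JUN was left near 13 of the 40 (all genes 16.6%), among them 6 ligands (CXCL2, CXCL3, CXCL6, CCL20, CSF3 and IL18) and none of the NF-kappaB subunits. Under ORY-1001 and C12, FOXA2 was left near 23 (all genes 38.9%) and 22 (28.7%). In NCI-H660, FOXA2 lay near 21 of the 40 (37.6%), and JUN near 25 under siNC (66.2%) and 28 under siFOXA2 (83.5%). In LNCaP, JUN lay near 7 under siNC (13.4%), 33 in FOXA2OE (79.5%) and 36 in FOXA2K265R cells (85.0%). CXCL6 and CCL7 lie in the windows of CXCL1 and CCL2, so they share regions with members. The counts over the 40 are of genes and not of separate places, since a region near several of them counts for each.

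Accessible chromatin was checked against cell type markers, as a region within 1 kb of the start. CHGA, a neuroendocrine marker, was accessible in NCI-H660 and not in PC3, whereas the other 4 neuroendocrine markers were accessible in both lines. Of 5 mesenchymal or stem-like markers, VIM was accessible in PC3 and not in NCI-H660, and CD44, AXL, ZEB1 and TGFBI were accessible in both. Of 5 androgen receptor and luminal markers, 4 were accessible in PC3 and 3 in NCI-H660, and KLK3 in neither. Among immune markers CD14 was accessible in both lines, and PTPRC, CD3E and LYZ in neither. LNCaP had no ATAC list to check.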

How the data were processed

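The authors made ChIP-seq libraries for 3 transcription factors and 2 histone marks, and ATAC-seq libraries. They aligned reads with BWA 0.7.17-r1188 to hg19, processed them with SAMtools 1.9 and called regions with MACS2 2.1.4. The 22 deposited files were interval lists. In 20 of them the authors had deposited a whole-number score, read here as 10 times −log10 q from its range, and 2 lists held none. Depth, pooling and the control libraries were not given in the sources used here, so a longer list is not by itself more binding. Labels of the ATAC samples repeat the ChIP protocol, and the H3K27ac list was taken as vehicle from its title.

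Gene bodies, canonical starts and annotation came from GENCODE release 44 lifted to this build, and all intervals fitted its chromosomes. Control regions that shared at least 1 bp with a region of the second list counted as kept. Named were all members and most of the highest-scoring control regions of each locus, kept regions and regions within 1 kb of a start. A place that is not named may still hold a region. Motifs were searched within 100 bp of region centres. Scripts used Python 3.11.15, SciPy 1.17.1 and pysam 0.24.0, and overlaps and intervals were tested on simulated data. The members and lists were chosen with earlier results of these data known. A marker and a sequence are not reported here.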

Additional observations from a re-analysis of the deposited data

Results flagged for a closer look

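JUN regions at the loci changed in opposite directions under siFOXA2 in the 2 lines. In PC3 their number fell by 19, from 21 to 2, and in NCI-H660 it rose by 9, from 10 to 19. The difference was not tested, since each arm is 1 list. Beside it, the whole siFOXA2 list was shorter than siNC in PC3 (4081 against 23890 regions) and longer in NCI-H660 (59452 against 18401), and at a score of at least 50 the numbers at the loci were 19 and 1 in PC3 and 7 and 7 in NCI-H660. The part of list length in the result was not tested.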

How the results depend on the processing

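Of 63 recomputed values, 48 stayed within the interval of the reported share or within 1.5 times the reported count, and 15 did not. Within 10 kb of the genes the counts were 5 for PC3 FOXA2, 1 for NCI-H660 FOXA2, 6 for PC3 JUN and 6 for NCI-H660 JUN, and within 100 kb they were 29, 12, 33 and 19, since the window sets them. When either of the other FOXA2 ChIPs replaced the PC3 vehicle list, the FOXA2 count was 49 or 41, the share kept under C12 was 6.12% or 7.32%, and the share kept under ORY-1001 was 14.3% with the first of them. When each pair of lists was reduced to equal length by score, the share kept was 100% for PC3 JUN under siFOXA2, where only the TNFAIP3 start was left (1 of 1), and 66.7% for PC3 FOXA2 under C12 (2 of 3). Those denominators are too small to read. A score of at least 50, a stricter or looser overlap and leaving out places found in at least 17 lists, of which the loci hold none, moved no value beyond these bounds. For FOSL1 the stricter score and the equal numbers left no region and gave no value. No paired analysis was possible because no result comes from a test. Depth is unknown, and with 3 to 21 control regions the intervals are wide.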
